A study of Gallus gallus with 18 samples.

Results

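Among 18 chicken embryos at gastrulation, female 9, male 5, male 6 and male 8 had streak tissue whose profile stood apart from that of the other 14. These 4 embryos were chosen by measured signals of the same arrays, namely their high loadings on the first principal component in an earlier analysis. All that separates them is therefore given as a description, with no test. All 18 were White Leghorn embryos at day 1, of Hamburger and Hamilton stage 4, and were kept for 3 h in culture. Each gave 1 array from a 400-micron square of tissue. The square spanned 70% to 90% of the length of the primitive streak and all 3 germ layers. The 4 held 1 female and 3 males and the other 14 held 8 females and 6 males, sex having been read by the authors from transcripts of a gene on the female-specific W chromosome. By the paper's methods some embryos had been electroporated, and the labels do not name them, so the part of electroporation in the values was not tested. Values are MAS5 signals, the authors' summary of each probeset on a linear scale without a physical unit, and differences are on log2 of signal with sex as a covariate, each with its standard error (SE).

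At this stage cells of the epiblast enter the primitive streak and leave it as mesoderm and endoderm. The anterior tip of the streak, the node, makes the axial mesoderm and secretes antagonists of BMP and Nodal signals, and endoderm precursors leave through the anterior streak. Farther back, the streak gives rise to paraxial, then lateral and extraembryonic mesoderm. DLL1, MSGN1 and LFNG mark paraxial mesoderm, and HOX and CDX genes come on from the posterior end forward. In a piece of tissue, fewer cells of a type and less RNA per cell cannot be told apart.

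The embryos lay along a gradient more than in 2 clear groups. The first component held 17.3% of the variance. Its loadings were 0.465 in female 9, 0.417 in male 8, 0.367 in male 5 and 0.249 in male 6. The nearest of the others were male 9 at 0.134 and female 6 at 0.120, and the remaining 12 ran from 0.021 down to -0.282. When the mean of each sex was removed first, female 9, male 8 and male 5 still had the highest loadings, with 0.587, 0.368 and 0.298, while female 6 at 0.206 came before male 6 at 0.170. The mean correlation of an embryo with the other 17 was lowest in female 9 (0.936) and male 8 (0.940). That of male 5 was 0.947, above that of male 3 at 0.946, and male 6 with 0.951 had 11 embryos below it. The label of outlying embryos thus described female 9, male 8 and male 5 better than male 6. For sex between the 4 and the 14, Fisher's exact test gave a two-sided p = 0.576. With only 4 embryos in 1 set this test is almost unable to detect a difference. As 3 of the 4 were male, no balance of sex is read from it.

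**Figure D1:**
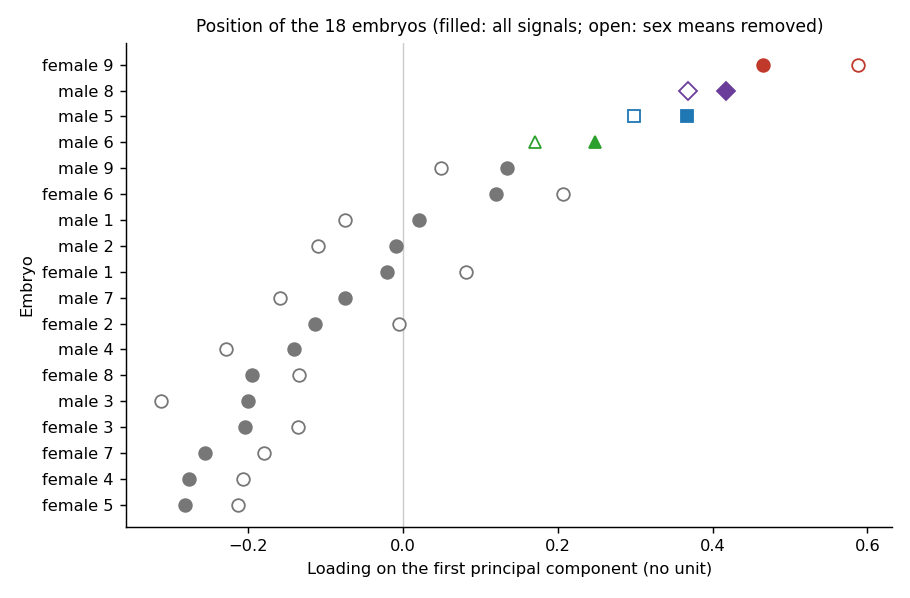
Loading of each of the 18 embryos (rows) on the first principal component of log2 signals, with filled symbols for all signals and open symbols after the mean of each sex was removed. Female 9, male 8 and male 5 lie to the right on both, whereas male 6 at 0.170 falls behind female 6 at 0.206 on the open symbols.

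By their ranges, array controls did not separate the 4 from the 14, but female 9 lay at the edge of several. For GAPDH the 3' probeset was brighter than the 5' one, a measure of RNA integrity, by a ratio of 2.19 to 3.04 in the 4 and of 2.28 to 4.06 in the 14. Between 13804 and 15248 probesets reached the detection level of 129 in each of the 4, against 13915 to 15263 in the 14. The lowest bioC and cre hybridization controls among the 4, 486 and 18357, lay just under the lowest of the 14 at 508 and 18964.

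Of 14540 probesets with a signal of 129 or more in at least 9 embryos, 27 were at least 2-fold higher in the 4 with no overlap between the sets (0.186%), and 38 were at least 2-fold lower with no overlap (0.261%). These shares follow in part from how the embryos were chosen, and nothing is read from them. A probeset detected only in the 4 cannot reach 129 in 9 embryos, whereas one detected only in the 14 can. The filter thus favours lower over higher probesets in such counts. Conversely, a probeset that fewer than 9 of the 14 reached could pass only through the 4, which favours higher values there. Without the no-overlap condition the counts were 165 and 240. The 27 higher probesets read 18 genes and 7 read no single gene, and the 38 lower ones read 27 genes with 8 unassigned. The probesets nearest the 2-fold limit were ELK3 at 1.00 just inside and SLC22A15L at 0.997 just outside, and LRRC8D at -1.01 inside and FGFR3 at -0.99 outside. Leaving out male 6 gave 103 higher and 95 lower probesets, and leaving out female 6 from the 14 gave 56 and 58.

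The gene with the largest higher difference among those set apart was TRIM36, a ubiquitin ligase gene on chromosome Z of the GRCg7b assembly that acts in dorsal axis formation in Xenopus. Its signal was 3139 in female 9, 2731 in male 5, 1691 in male 6 and 6132 in male 8. In the 14 it ran from 202 to 763 with a median of 385. All 4 thus lay more than 2-fold above the highest of the others, which was female 6, and the log2 difference was 2.83 (SE 0.32), a 7.13-fold difference. A second probeset of TRIM36 gave 2.64. GATA6, on chromosome 2, a zinc finger transcription factor of endoderm and heart precursors, followed with 2.64 (SE 0.57). Its signal was 1417 in female 9 and 1373 in male 8, 390.7 in male 5 and 198 in male 6, against 23.6 to 187 with a median of 106 in the 14. Male 6 was only just above female 6, the highest of the 14 for GATA6.

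The other genes with large higher differences had diverse roles. ENC1, an actin-binding kelch protein gene on chromosome Z, had signals of 2526 in female 9, 2384 in male 5, 2595 in male 6 and 4169 in male 8. The 14 embryos had ENC1 at 242 to 2003 with a median of 626, female 6 again being the highest, and the log2 difference was 2.05 (SE 0.36). A dimmer probeset of ENC1 gave 0.97 and overlapped, with 212 in female 9 and up to 340.2 in the 14. ACBD3, which codes for a Golgi protein, differed by 2.09 (SE 0.26), with 1197 in male 6, the lowest of the 4, and 1180.2 in female 6, the highest of the 14. A brighter ACBD3 probeset gave 1.27 and overlapped, with male 6 at 3907 and female 6 at 5008. SERTM1, a membrane protein gene, was at 7771 in female 9, 6760.1 in male 5, 5357 in male 6 and 6662 in male 8, against 1341 to 3982 with a median of 2169 in the 14. Its difference was 1.62 (SE 0.27). The remaining genes of the 10 largest were ANO3, an anoctamin (2.26), FBXL17, an F-box protein gene on chromosome Z (1.58), ADAMTS9, a secreted protease that cleaves matrix proteoglycans (1.56), TUFT1 (1.54) and PDLIM5, a PDZ and LIM protein gene of the actin cytoskeleton (1.43, and 0.74 with overlap by a dimmer probeset). Signals of ANO3 were low, 267 to 446 in the 4 and 6.27 to 235 in the 14, and its difference was 1.26 once signals under 129 were set to that level. This ANO3 probeset reached 129 in only 5 of the 14, so it too passed the filter through the 4. A brighter probeset of ANO3 gave 2.19, at 3236 to 6867 in the 4 and 325 to 3842 in the 14, with overlap. The 3 other filtered probesets of ADAMTS9 gave 1.16 to 1.45 and overlapped.

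CFC1, the Cripto-type co-receptor through which Nodal signals, was also set apart. Its signal was 12532 in female 9, 14848 in male 5, 12768 in male 6 and 17524 in male 8. In the 14 embryos CFC1 ran from 2499 to 8766 with a median of 5184, so the 4 were close to each other and well clear of the rest. The log2 difference was 1.32 (SE 0.27). CFC1 was 1 of 7 higher probesets on chromosome Z, which held 3.45% of all filtered probesets and none of the 38 lower ones. Overlap was judged on signals without adjustment for sex and the 4 held 3 males, so sex was not balanced in that condition. The 7 probesets differed by 1.03 or more within males alone and by 1.35 or more between female 9 and the other females. The median difference of Z probesets was -0.03, as was that of all filtered probesets. The other genes set apart as higher had smaller differences and included DOCK4 (1.21) and PREX1 (1.09), activators of the GTPase Rac, the tyrosine kinase SYK (1.20) and the actin-binding LIMA1 (1.09). A probeset without an assigned gene had the largest higher difference among those without overlap, 3.38, at 2308 to 6546 in the 4 and 172 to 1502 in the 14.

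**Figure D2:**
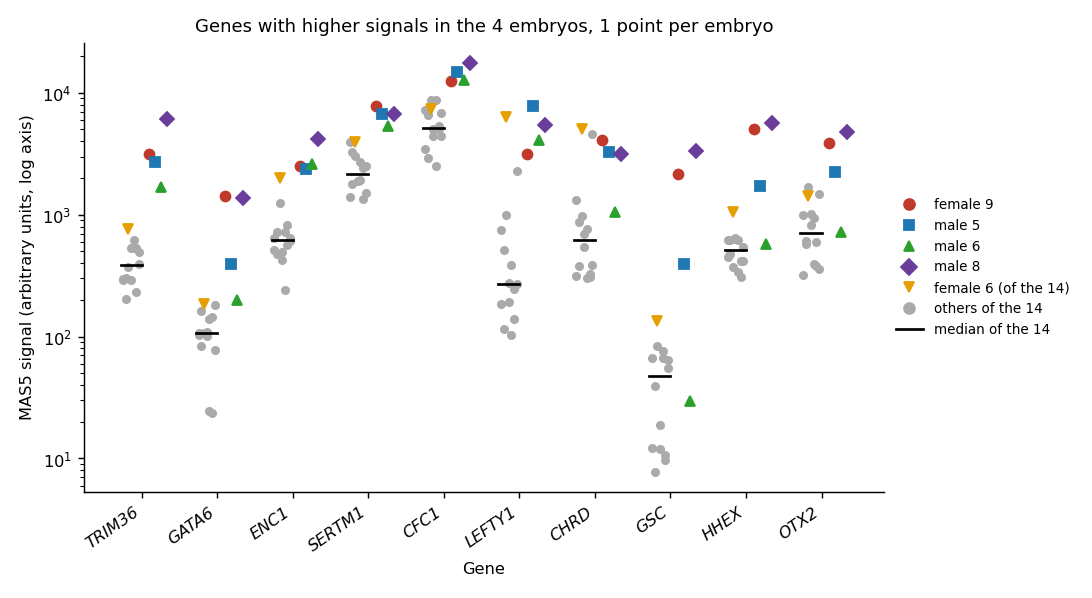
MAS5 signals (log axis) of 10 genes in each embryo, with coloured symbols for the 4 embryos, an inverted triangle for female 6, grey dots for the others of the 14 and a bar for the median of the 14. For TRIM36, GATA6, ENC1, SERTM1 and CFC1 all 4 embryos lie above all 14, whereas for GSC, HHEX and OTX2 male 6 lies among the 14.

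Among the genes set apart as lower were ZEB2, CDH11 and MEOX1. ZEB2, on chromosome 7, a zinc finger repressor of epithelial genes, had a signal of 78.5 in female 9, 608 in male 5, 866 in male 6 and 492 in male 8. The 14 embryos ran from 1365 to 3253 with a median of 2145, and the log2 difference was -2.74 (SE 0.36), with -1.89 in males alone. CDH11, on chromosome 11, a cadherin of mesenchymal cells, was alike in the 4 at 295 in female 9, 297 in male 5, 351 in male 6 and 393 in male 8. In the 14 it ran from 605 to 2379 with a median of 1343, a log2 difference of -2.16 (SE 0.22). MEOX1, on chromosome 27, a homeobox gene of somitic mesoderm, was at 83.3 in female 9, 121 in male 5, 230.0 in male 6 and 196 in male 8, against 299 to 2255 with a median of 738, a difference of -2.57 (SE 0.45). For ZEB2, CDH11 and MEOX1 the lowest of the 14 was female 6. Dimmer probesets of ZEB2 (-2.43) and CDH11 (-1.59) overlapped, with male 5 at 166 against a lowest value of 107 for ZEB2 and male 8 at 259 against 237 for CDH11. The list of cadherin, junction and epithelial-mesenchymal genes that held ZEB2 and CDH11 had a median of -0.01 with 8 of 17 members higher and 9 lower.

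Matrix genes were among the lower ones as well. SULF1, a secreted sulfatase that trims heparan sulfate chains, had signals of 32.9 in female 9, 88.0 in male 5, 175 in male 6 and 103 in male 8. The 14 had SULF1 at 269.5 to 769 with a median of 458, and the difference was -2.47 (SE 0.32), or -1.66 with signals floored at 129. The brighter probesets of SULF1 gave -2.03 and -1.46 and overlapped, since male 6 at 2812 and 1933 was above the lowest of the 14 at 2238 and 1474. COL1A2, a chain of fibrillar collagen, was at 2766 in female 9, 6062 in male 5, 3074 in male 6 and 4810.3 in male 8, against 6762 to 16342 with a median of 11732. Its difference was -1.59 (SE 0.23), and 2 further filtered probesets gave -1.31 and -1.19. Within the list of 26 filtered matrix and integrin genes COL1A2 was the only one at least 2-fold lower and the median was 0.03, so the list as a whole lay at the median of all genes (-0.02). ITGA6, a laminin receptor chain, was the only one without overlap on the higher side, at 421 to 651 in the 4 and 174 to 370.2 in the 14.

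DLL1, LFNG and HES5, which act in Notch signalling, were farthest down in female 9. DLL1, on chromosome 3, the Notch ligand of presomitic mesoderm, had a signal of 165 in female 9, 762 in male 8, 3473 in male 5 and 5094 in male 6, against 5961 to 10646 with a median of 8656 in the 14. Its difference was -3.02 (SE 0.53), and -1.81 without female 9. The brighter probeset of DLL1 gave -2.12 and overlapped, with 28021 in male 6 and 26165 in the lowest of the 14, and it became -0.96 without female 9. LFNG, the glycosyltransferase that modifies Notch, was at 583 in female 9, 6409 in male 5, 6446 in male 6 and 4679.7 in male 8, against 7211 to 16823 with a median of 11696. The difference of LFNG was -2.04 (SE 0.39) with female 9 and -1.06 without it. HES5, a Notch target gene, was listed at 1.71 in female 9, far under the detection level, and at 65.0 in male 5, 127 in male 8 and 165 in male 6. The 14 had HES5 at 141 to 655 with a median of 353, so that male 6 overlapped them, and its difference of -3.61 (SE 0.67) became -1.94 without female 9 and -1.46 with signals floored at 129. The list of WNT, BMP, FGF and Notch feedback targets, which held LFNG and HES5, had a median of 0.01 with 12 members higher and 11 lower, so these genes do not stand for their list.

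The remaining genes of the 10 largest lower differences were ARHGAP28 (-3.14), USP24, a deubiquitinase (-1.69), and NHS, a regulator of actin (-1.60). ARHGAP28 was under 129 in all 4 embryos, and flooring the signals left -1.19. The other 2 filtered probesets of USP24 gave 0.03 and 0.13, so the lower value held for a single probeset of that gene, and flooring left -0.47 of it. The other 17 genes set apart as lower lay between -1.54 and -1.01. They included TNFRSF19 (-1.54), a receptor of the tumour necrosis factor family, which was under 129 in all 4 embryos, at 62.2 to 92.7. Also among them were OLIG2 (-1.48), a basic helix-loop-helix factor of neural progenitors, and GAS6 (-1.22), a ligand of receptor tyrosine kinases. FGFR3, a receptor for fibroblast growth factors, was another by 1 probeset (-1.10). A different FGFR3 probeset was the one just outside the 2-fold limit (-0.99). A probeset without an assigned gene had the largest lower difference among those without overlap, -4.27, at 36.0 to 413 in the 4 and 430.1 to 5179 in the 14.

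**Figure D3:**
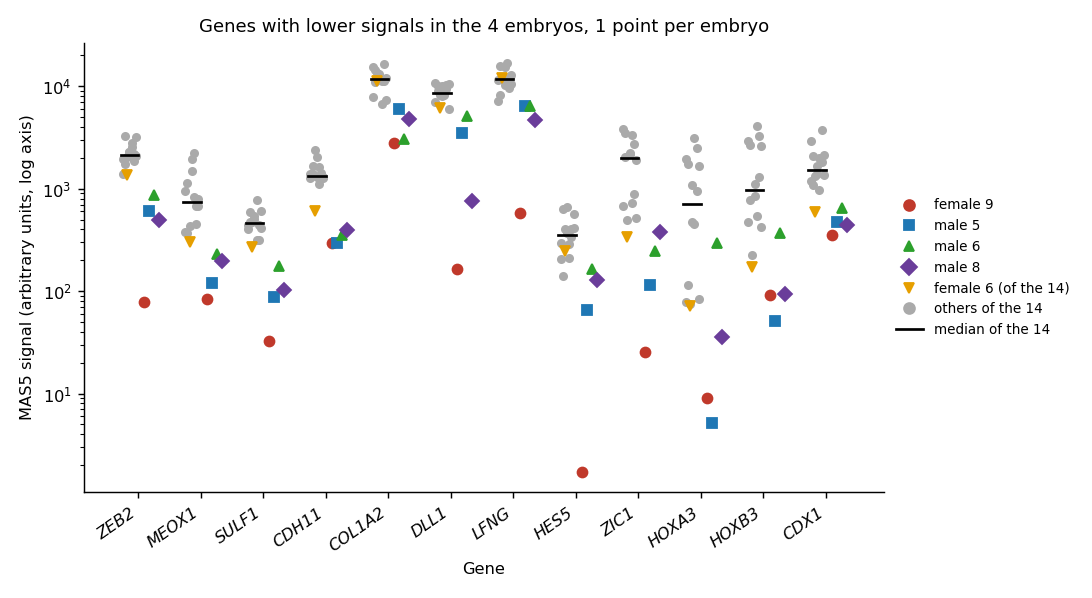
MAS5 signals (log axis) of 12 genes in each embryo, symbols as in the plot of higher genes. For ZEB2, MEOX1, SULF1, CDH11, COL1A2, DLL1 and LFNG all 4 embryos lie below all 14, with female 9 far below for DLL1, LFNG and HES5, and for HOXA3, HOXB3 and CDX1 female 6 lies nearest to the 4 or among them.

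Region and tissue markers were then compared by lists of textbook genes, each gene by its brightest filtered probeset. Over the 7845 genes measured this way, 95 were at least 2-fold higher in the 4 (1.21%) and 123 at least 2-fold lower (1.57%), and without overlap at any size there were 45 higher (0.574%) and 37 lower (0.472%). Nothing is read from these shares, since the lists and the embryos were chosen on these arrays or with results from them known. The filter also favours lower over higher genes, apart from genes that passed it only through the 4.

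HOX and CDX genes, which set position along the body axis, were lower in all 8 members that passed the filter, 7 of them at least 2-fold, with a median of -1.38. A further 9 of the 20 listed were below the filter and 3 were not matched. Genes low in the 4 could pass the filter through the 14 alone, and genes high only in the 4 could not. That all 8 were lower may follow in part from this. HOXA3 and HOXB3 each reached 129 in only 1 of the 4. HOXB3 had signals of 91.5 in female 9, 50.9 in male 5, 368 in male 6 and 92.7 in male 8. In the 14 HOXB3 spread widely, from 170.2 to 4059 with a median of 979.9, and male 6 lay inside that range. CDX1 was at 355 in female 9, 470.2 in male 5, 651 in male 6 and 445 in male 8, against 587 to 3711 with a median of 1530.1. The differences were -3.07 (SE 0.79) for HOXB3 and -1.80 (SE 0.35) for CDX1. HOXA3 differed by -4.23 (SE 1.23), a value that flooring at 129 brought to -1.77 because it was at 8.96 in female 9, 5.10 in male 5 and 35.7 in male 8. HOXB1, with -1.13 (SE 0.23), was at 4071 in female 9, 6696 in male 5 and 6589 in male 8, below the lowest of the 14 at 8949.8, and at 12710.4 in male 6. Female 9 and male 5 each had 6 of the 8 genes below all 14 embryos, male 8 had 5 and male 6 had 0. Over all filtered genes the shares below all 14 were 11.8% in female 9, 8.41% in male 5, 13.4% in male 8 and 6.88% in male 6.

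Most node and organizer genes showed the opposite direction in the same 3 embryos. Of 14 listed, 7 passed the filter, and 5 of these were higher and 2 lower on average. Of the 7, 3 were at least 2-fold higher and none was 2-fold lower. The median was 0.52, or 1.10 without male 6. Without female 9 it was 0.18, with 3 genes 2-fold higher and 1 2-fold lower. LEFTY1, a secreted antagonist of Nodal, was at 3161 in female 9, 7806 in male 5, 4124 in male 6 and 5445 in male 8. Of the 14, female 6 had 6365 and male 9 had 2277, while the median was 271 and the lowest 102. The log2 difference of LEFTY1 was 3.48 (SE 0.86), or 2.24 with a replicate block. This block matches the female and the male of the same title number, so female 6 with male 6 and female 9 with male 9. CHRD, the BMP antagonist chordin, was at 4087 in female 9, 3256 in male 5, 1061 in male 6 and 3119 in male 8. The 14 had CHRD at 302 to 5019 with a median of 619. Of these, female 6 at 5019 and male 9 at 4596 lay above all 4. CHRD differed by 1.84 (SE 0.71), or 0.88 with the replicate block. LHX1, a LIM homeobox gene of the organizer, was at 501 in female 9, 599 in male 5 and 676 in male 8, all above the highest of the 14 at 457, and at 178 in male 6. The members in the other direction were the secreted antagonists FST (-0.59, SE 0.76) and NOG (-0.33, SE 0.27), of which NOG was at 105 to 133 in the 4 and 57.6 to 250.2 in the 14.

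Goosecoid (GSC), the homeobox gene that defines the organizer, did not pass the filter because few embryos reached 129. Its signal was 2163 in female 9, 3319 in male 8 and 391.9 in male 5. In male 6 it was 29.6, and in the 14 it ran from 7.81 to 134 with a median of 47.4. SHH, which marks the node at a later step, was below 129 in all 18 embryos, at 22.1 to 57.3 in the 4 and 5.90 to 78.9 in the others. NOTO, a homeobox gene of the notochord, was at 1000.4 in female 9 and 787 in male 8, above the 434 of the highest of the 14, but at 311 in male 5 and 117 in male 6. Female 9, male 5 and male 8 thus each had 3 of the 7 filtered organizer genes above all 14, and male 6 had 0. Over all filtered genes the shares above all 14 were 10.4% in female 9, 8.35% in male 5, 8.76% in male 8 and 6.50% in male 6.

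**Figure D4:**
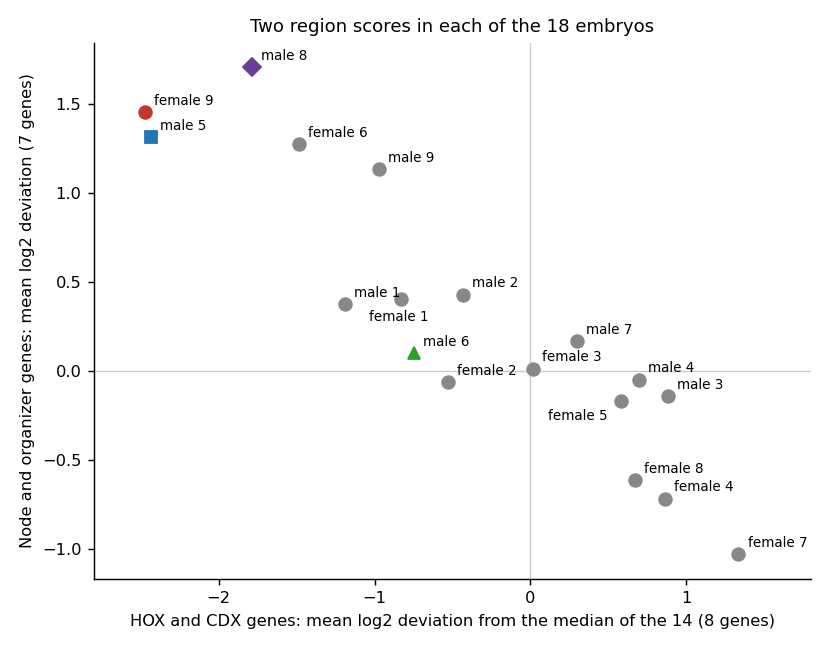
Mean log2 deviation from the median of the 14 over 7 node and organizer genes (vertical) and 8 HOX and CDX genes (horizontal), 1 symbol per embryo. Female 9, male 5 and male 8 lie at the upper left, followed by female 6 and male 9, and male 6 lies near the middle at 0.10 and -0.75.

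The mean deviation of the 8 HOX and CDX genes put the embryos in an order that did not follow the choice of the 4. It was lowest in female 9 (-2.47), male 5 (-2.43) and male 8 (-1.78), then came female 6 (-1.49), male 1 (-1.19), male 9 (-0.97) and female 1 (-0.83), and only then male 6 (-0.75). The highest were male 3 (0.88) and female 7 (1.33). For the 7 organizer genes male 8 (1.71), female 9 (1.46), male 5 (1.32), female 6 (1.28) and male 9 (1.14) were highest, and female 7 (-1.03) was lowest.

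Endoderm genes were on average higher in female 9, male 8 and male 5, with mean deviations of 1.40, 1.38 and 0.60. Male 6 was at 0.05 and the 14 at -0.91 to 0.27. Of 18 listed genes 9 passed the filter, and 7 of these were higher and 2 lower, the lowest at -0.35. At least 2-fold higher were 3 of the 9, and none was 2-fold lower. Of these 3, GATA6 passed the filter only through the 4. The median was 0.59, or 0.20 without female 9. HHEX, a homeobox gene of anterior endoderm, was at 5089 in female 9, 5611 in male 8 and 1728 in male 5, above the 14 at 307 to 1060.5 with a median of 510.4, and at 573 in male 6. Its difference was 2.29 (SE 0.43). OTX2, a homeobox gene of the anterior epiblast and endoderm, was at 3880 in female 9, 2232 in male 5, 722 in male 6 and 4764 in male 8. The 14 embryos had OTX2 at 318 to 1694 with a median of 711, so that male 6 was at their middle, and the difference was 1.66 (SE 0.50). SOX17, the general endoderm factor, differed less, with 0.23 (SE 0.16) and signals of 15302 to 22706 in the 4 against 8506 to 18704. FOXA2, shared with the node list, was above the 14 in female 9, male 5 and male 8, at 732, 605 and 1006 against a highest value of 568.0, and at 363 in male 6.

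The list of streak and paraxial mesoderm genes had members in both directions, with a median of -0.19. Brachyury (TBXT), the T-box gene of the whole streak, was bright in every embryo, at 21977 in female 9 and 29123 to 31664 in the other 3 against 25491 to 39141, a difference of -0.18 (SE 0.12). TBXT was about as bright as the ribosomal gene RPL10A, which was at 22909 in female 9 and 26870.7 to 42180.5 in the 14. Saturation of such signals was not tested, so the small difference does not show that TBXT was alike in the sets. The brighter DLL1 probeset, at 26165 to 37708 in the 14, shares this limit. Of 13 filtered members 5 were at least 2-fold lower, namely DLL1, EVX1, CDX4, MSGN1 and CDX2, and 2 were 2-fold higher, EOMES and FGF8. Without female 9, 2 members were 2-fold lower and 2 were 2-fold higher, with a median of -0.05. CDX4 and CDX2 were also in the HOX and CDX list. MSGN1, a regulator of presomitic mesoderm, was at 3339 in female 9 and 7118 in male 8, and at 17093 in male 5 and 21057 in male 6, the 14 being at 17674 to 27318. EVX1, a homeobox gene of the posterior streak, was at 80.9 in female 9, 61.5 in male 5 and 51.0 in male 8, below the 14 at 141 to 579.8, and at 174 in male 6, a difference of -1.73 (SE 0.33), or -0.97 with the floor. On the higher side EOMES, a T-box gene of the anterior streak and endoderm precursors, was at 656 in female 9, 573 in male 5 and 807 in male 8 against 80.5 to 499.8 in the 14, and at 219 in male 6. FGF8, a secreted growth factor of the streak, was at 1191 in female 9, 757 in male 5 and 1657 in male 8 against 72.7 to 643, and at 149 in male 6. TBX6, a T-box gene of paraxial mesoderm, was higher by 0.94 (SE 0.36) at low signals, 141 to 344 in the 4 and 35.1 to 183 in the 14, and by 0.59 with the floor. Only 7 of the 14 reached 129 for TBX6.

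Genes of posterior, lateral and extraembryonic mesoderm had a median of -0.53 over 12 filtered members of 20 listed, with 4 at least 2-fold lower and none 2-fold higher. These 4 were LMO2 and KDR, both also in the blood list, HOXB1, also in the HOX and CDX list, and WNT5A. Without female 9, 2 members were at least 2-fold lower and the median was -0.50. LMO2, a cofactor of blood and vessel precursors, differed by -1.79 (SE 0.41), at 23.5 to 115 in the 4 and 113 to 486 in the 14, by -1.02 without female 9 and by -0.74 with signals floored at 129, a level that none of the 4 reached. WNT5A, a secreted ligand of the posterior streak, was at 1517 in male 5 and 1699 in male 8, below the lowest of the 14 at 2048, and at 2737 in female 9 and 4120.0 in male 6. KDR, the VEGF receptor of vessel and blood precursors, was at 86.6 in female 9 and 106 in male 8, but at 335 in male 5 and 635 in male 6, within the 117 to 1723 of the 14. Its difference of -1.09 (SE 0.61) became -0.48 without female 9. BMP4, a growth factor of the posterior streak, did not pass the filter and lay at 59.9 to 105 in the 4 and 37.5 to 181 in the 14. Of 16 listed genes of blood and vessel precursors 3 passed the filter, 9 were below it and 4 were not matched.

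Neural and epiblast genes had a median of -0.01, with 5 of 11 filtered members higher and 6 lower, and 2 members 2-fold in each direction. The 2-fold higher ones were OTX2 (1.66), which the endoderm list also held, and CFC1 (1.32). The 2-fold lower ones were ZIC1 and SOX3. ZIC1, a zinc finger factor of the neural plate, was at 25.4 in female 9, 115 in male 5, 247 in male 6 and 380.4 in male 8, against 335 to 3833 with a median of 1974 in the 14, so that male 8 overlapped the 14, a difference of -3.48 (SE 0.73). SOX3, an epiblast and neural factor, differed by -1.09 (SE 0.22), and female 9 and male 5 with 1212 each lay just below the lowest of the 14 at 1332. SOX2, the related neural gene, did not pass the filter, and its signals of 30.8 to 53.8 in the 4 lay below the 63.3 to 299 of the 14 without reaching the detection level. All 6 filtered genes of non-neural ectoderm and the neural plate border, of 18 listed, were higher on average. Their median was 0.51, and none was 2-fold different. Of these genes, WNT6 and EYA2 passed the filter only through the 4. That all 6 were higher may follow in part from this. The mean deviation over this list was 0.70 in female 9, 0.43 in male 8, 0.23 in male 5 and 0.04 in male 6. The 14 ran from -0.45 to 0.60. Of them, female 1 at 0.60 and female 3 at 0.45 lay above male 8, male 5 and male 6. DLX5, a homeobox gene of this list, was at 13378 in female 9, against 1814 to 9375 in the 14. In the other 3 of the 4 it was inside that range. MSX1, a homeobox gene that the posterior list also held, was at 7212 in female 9 and 4498 in male 6, above the 1266 to 4243 of the 14, and at 2269.7 in male 5 and 3749 in male 8.

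**Figure D5:**
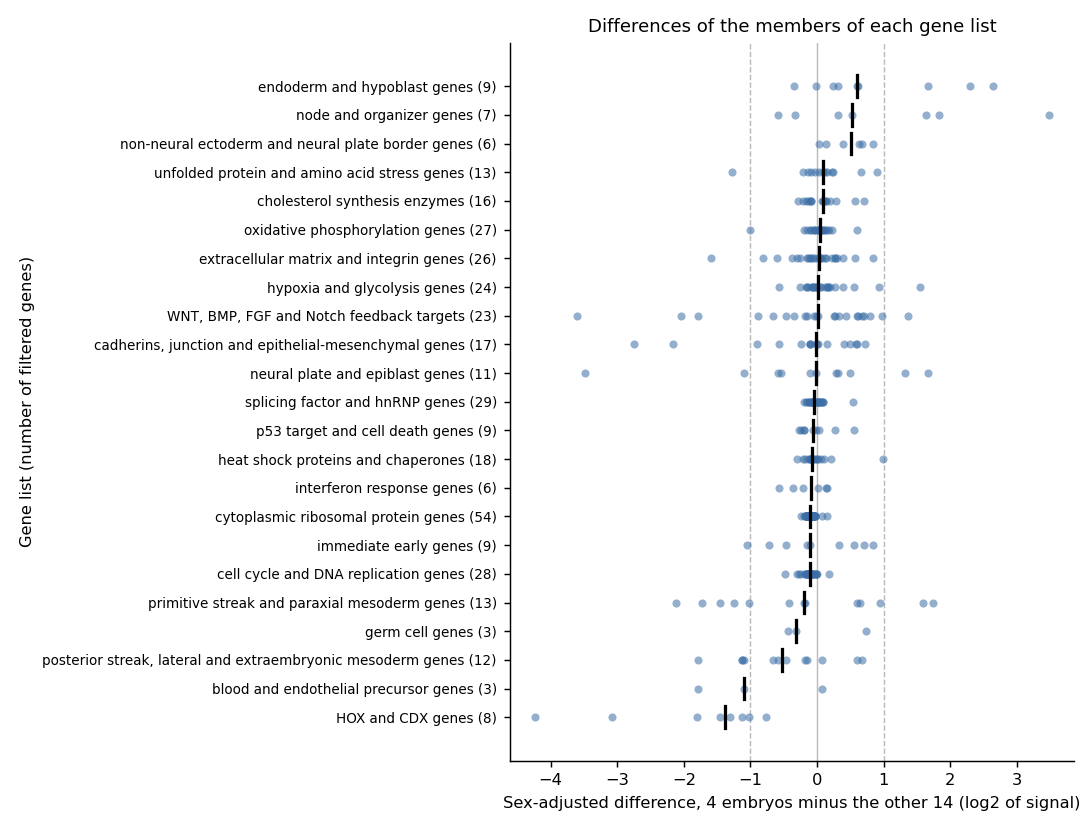
Sex-adjusted log2 difference of each filtered gene (dots) in 23 gene lists, with a bar at the median of a list, dashed lines at 2-fold and the number of filtered genes in brackets. HOX and CDX genes lie to the left at a median of -1.38, endoderm and node genes to the right at 0.59 and 0.52, and the stress, cell cycle, ribosomal and splicing lists lie near 0.

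The medians of lists of stress and of general cell functions lay close to the median of all genes, -0.02. The medians were -0.07 for 18 chaperone genes, 0.10 for 13 genes of the unfolded protein response, -0.05 for 9 p53 targets, -0.10 for 9 immediate early genes, -0.09 for 6 interferon genes, 0.02 for 24 genes of glycolysis and hypoxia and 0.04 for 27 genes of oxidative phosphorylation. Cell cycle genes had a median of -0.11 with 26 of 28 below 0. Female 9 had 9 of these 28 genes below all 14 embryos, male 8 had 10, male 5 had 3 and male 6 had 0. These shares were 32.1% in female 9 and 35.7% in male 8, where 11.8% and 13.4% of all filtered genes lay below all 14. The mean deviation over the cell cycle list was -0.19 in female 9 and -0.24 in male 8, outside the -0.08 to 0.09 of the 14. Ribosomal protein genes had a median of -0.10, which was 0.00 after quantile normalization, with 52 of 54 below 0 before it. Of the ribosomal genes female 9 had 23 below all 14 embryos, male 8 had 1 and male 5 and male 6 had 0. These counts were on signals before quantile normalization, and no lower ribosomal expression in female 9 is read from them. Single members departed from their lists. LDHA, which makes lactate in glycolysis, was at 10475 in male 8, 4894 in female 9, 2797 in male 5 and 939.6 in male 6, against 503 to 3148 in the 14, a difference of 1.55 (SE 0.53). HSPA2, a member of the 70-kilodalton heat shock family, was at 6983 to 9828 in the 4 and 2395 to 6424 in the 14 without overlap, a difference of 0.99 (SE 0.22). In the lower direction VLDLR, of the unfolded protein list, differed by -1.27 (SE 0.33) and JUN, of the immediate early list, by -1.05 (SE 0.41), both with overlap. In male 8 the list of unfolded protein response genes had 7 of 13 members above all 14 embryos, and in the other 3 it had 0 or 1. Over all filtered genes the share above all 14 in male 8 was 8.76%. Female 5, 1 of the 14, had a mean deviation of 0.52 over the unfolded protein list, against 0.63 in male 8. The part of array or tissue handling in these values was not tested.

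The set-apart probesets also differed in which embryo was farthest out. Among the 27 higher probesets male 8 was the most extreme in 13, female 9 in 11, male 5 in 3 and male 6 in 0, and male 6 was the least extreme in 18. Among the 38 lower ones female 9 was the most extreme in 20 and male 8 in 13, and male 6 was again the least extreme in 18. Of the 14, female 6 was nearest to the 4 in 14 of the 27 higher and 17 of the 38 lower probesets. Its median deviation from the median of the 14 was 0.62 in the higher and -0.56 in the lower set, against 1.29 and -0.99 in male 6 and 1.59 and -1.54 in female 9. By the way they were counted, male 6 lay outside the 14 for all 65 probesets. Yet it had 0 of 7 organizer genes and 1 of 9 endoderm genes above all 14, namely GATA6, and 0 of 8 HOX and CDX genes below all 14. GATA6 passed the filter only through the 4. In other region lists male 6 was above all 14 in 2 of 11 neural, 2 of 12 posterior, 1 of 13 streak and 1 of 6 border genes. It was below all 14 in 1 of 7 organizer, 1 of 11 neural, 1 of 12 posterior and 1 of 6 border genes. Over all 7845 genes male 6 was above all 14 in 6.50% and below all 14 in 6.88%, and the corresponding shares were 10.4% and 11.8% in female 9, 8.35% and 8.41% in male 5 and 8.76% and 13.4% in male 8.

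Few probesets were at the detection level in only 1 of the sets. Of 38439 probesets, 3 were at 129 or more in all 4 embryos and in none of the 14, among them KCNJ5, a potassium channel gene, and HECW2, a ubiquitin ligase gene, at 132 to 214 and 143 to 221 in the 4. The highest values of the 14 were 127 for KCNJ5 and 125 for HECW2, just under the level. In the other direction GPSM1, a regulator of G protein signalling, was below 129 in all 4 and at 131 to 336 in the 14 by 1 probeset, whereas a brighter one read 544 to 781 in the 4 and 663 to 1124 in the 14, with overlap.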

How the data were processed

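The authors hybridized amplified, biotin-labelled RNA of each embryo to an Affymetrix chicken array and deposited MAS5 signals, which are linear intensity values scaled to a common trimmed mean on each array. The tools named in the submitters' processing notes are MAS5 and affy. The depth of an array is set by its signal over background, and 1 array per embryo limits the precision. The deposited table held 38535 probesets in 18 columns, and 0 columns belonged to other samples. Embryos and sexes came from the sample titles.

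Here 96 control probesets were left out, the log2 of each signal was taken without a constant, and 14540 probesets whose 9th-highest signal was 129 or more were kept. Differences were fitted with limma 3.58.1 in R 4.3.3 for the 4 embryos against the other 14 with sex as a covariate, over all 18 embryos, and tested on simulated data. SE values are limma's moderated ones. No p-value was taken from this fit, because the embryos were chosen on these signals, and the members and gene lists were chosen with earlier results of these data known. A probeset was counted as set apart at a difference of 2-fold or more with no overlap between the sets. Gene names came from the platform annotation, with 11663 filtered probesets reading 1 gene, 68 several and 2809 none, and chromosomes from RefSeq on GRCg7b for 11584 of them. Sequences were not used here.

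Named were the 10 genes with the largest difference in each direction among those without overlap, up to 3 members of each of 23 lists with the largest difference, 9 defining genes of regions and genes detected in 1 set only. Other genes, such as NOTO, EOMES, MSGN1, FOXA2, SOX3, CDX2, CDX4, FGFR3, OLIG2, SYK and those nearest the fold limit, and the unassigned probesets were picked after their values were seen. Alternatives were other scalings, an added constant of 32, a floor, other filters and fold limits, no covariate, a replicate block, each sex alone, 1 probeset per gene, array weights and leaving out each embryo in turn. Added after the values were seen were list medians without male 6 and without female 9.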

Additional observations from a re-analysis of the deposited data

Results flagged for a closer look

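Within a sex, 1 embryo lay far from the other 8 on the log2 scale in 10 of 60 groups of 9 embryos looked at. The nominal rate of this rule by chance is about 1 group in 20, a rate that was not measured here. Since these embryos and genes were chosen for standing apart, the number of such groups follows in part from the choice. In 9 of the 10 the embryo was female 9. Among the females it had a TRIM36 signal of 3139 against 202 to 763 in the other females, a GATA6 signal of 1417 against 23.6 to 187 and a GSC signal of 2163 against 7.81 to 134. On the lower side female 9 had DLL1 at 165 against 6083 to 10646, ZEB2 at 78.5 against 1365 to 3253 and LFNG at 583 against 7211 to 16823. SULF1 was at 32.9 against 269.5 to 769, NHS at 195 against 790.2 to 1785 and COL1A2 at 2766 against 6762 to 15568. The remaining group was DLL1 among the males, where male 8 had 762 and the other males 3473 to 10420.2.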

How the results depend on the processing

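The 27 higher and 38 lower probesets became 31 and 35 after quantile normalization, 35 and 36 with arrays centred on the median, 26 and 31 with 32 added, 26 and 36 with array weights and 30 and 35 with no covariate. They became 50 and 48 with no filter, 53 and 69 at a fold limit of 1.5, 73 and 105 in males only, 322 and 667 in females only, where female 9 alone stood against 8 embryos, and 15 and 16 with 1 probeset per gene. Leaving out each embryo in turn gave 26 to 103 higher and 36 to 95 lower probesets, with 103 and 95 without male 6 and 56 and 58 without female 6. A smaller set of embryos makes the condition of no overlap easier to meet. A replicate block with sex gave 25 and 33. The numbers did not pair the embryos, as deviations of embryos of the same number correlated between -0.24 and 0.21 and 4 of 9 pairs were above 0.1, and 3 of 18 embryos correlated best with their own number in the other sex. Over 86 named differences and their alternatives, 55 values moved by more than the spread between embryos and 2266 did not. Of the named differences of 2-fold or more, 1 changed sign, NDUFS1 in females only at 0.82, whose signal was 16375 in female 9, 10869 in male 5, 518 in male 6 and 516 in male 8 against 495 to 18414 in the 14. Some smaller differences also changed sign, such as CHAC1, from 0.66 to -0.06 with the replicate block, and CASP8, from -0.27 to 0.18 in females only. Signals below 129 limit what can be said of HOXA3, HES5, LMO2, ARHGAP28, USP24 and TNFRSF19, whose order on the log scale below that level has no firm meaning. WNT5A went from -1.12 to -0.63 and JUN from -1.05 to -0.69 with the replicate block. The median of the node list went from 0.52 to 1.10 without male 6 and to 0.18 without female 9. Without female 9 that of the endoderm list went from 0.59 to 0.20 and of the blood list from -1.09 to -0.48. That of the streak and paraxial mesoderm list went from -0.19 to -0.05 without female 9.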
